A study of Monodelphis domestica with 2 samples.

Results

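LYN and IKZF1, which are best known from immune cells, were followed through the nuclei of the opossum visual cortex. They were taken by symbol (LYN, ENSMODG00000009142, and IKZF1, ENSMODG00000009274), and make up 2 of the 30800 genes counted and 2 of the 11590 that carried a symbol. The genes were chosen by their CPM and shares of positive nuclei across these subclasses, with earlier results in view, so the levels below are a description with no test. Single-nucleus RNA counts came from the primary visual cortex (V1) of 2 adult male gray short-tailed opossums (Monodelphis domestica), a marsupial. Animal 1 was 1.5 years old and animal 2 was 2 years old, the labels name no treatment, and together they formed a single group. Tissue of both hemispheres was pooled within an animal, nuclei were sorted on a DNA stain, and each suspension was divided over 2 libraries (1A and 1B, 2A and 2B). The authors' annotation placed 32764 nuclei in 18 subclasses and 44 types, of which 24497 nuclei were neurons, in 13 subclasses and 32 types, and 723 were microglia, the resident macrophages of the brain.

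LYN encodes a tyrosine kinase of the Src family. In B cells, mast cells and macrophages it sits at the inner face of the plasma membrane and phosphorylates immune receptors and their adaptors, and it can both start and restrain their signals. IKZF1 encodes Ikaros, a zinc finger transcription factor that acts with the NuRD chromatin remodelling complex in blood cell development. Both genes are used by microglia, and relatives of both families are also known from neurons: FYN, another Src family kinase, acts at synapses, and IKZF2 (Helios) has been described in the developing forebrain.

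The 4 libraries held 55625042 to 69706055 UMIs (unique molecular identifiers, each standing for a counted RNA molecule). The median depth was 7123.5 to 8515 UMIs per neuron and 1409 to 1603.5 per microglial nucleus, by library. Levels are CPM, UMIs of a gene scaled to 1e6 UMIs of the summed nuclei, and intervals are exact 95% intervals that cover counting error only. Pairs of libraries shared 16 to 30 barcode sequences, 134 of 36558 barcodes in all. Microglial nuclei carried their markers, with a summed level of 6127 and 6340 CPM in animals 1 and 2 over the 15 of 20 listed markers that had a symbol, and 14 of the 15 were detected there, the exception being ITGAM at 0. In bulk sums of this kind, fewer nuclei that hold a transcript and fewer transcripts in each nucleus cannot be told apart, so the share of positive nuclei, those with at least 1 UMI of the gene, is given beside the level.

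Microglia had the highest level of each gene. LYN stood at 796 CPM in animal 1 and 851 CPM in animal 2, with 64.5% and 68.3% of microglial nuclei positive. IKZF1 stood at 724 and 684 CPM, with 65.4% and 63.4% positive. The libraries of the animals overlapped for IKZF1 in microglia (701 and 751 CPM in 1A and 1B, 648 and 718 CPM in 2A and 2B), and for LYN they lay apart by a small margin (786 and 807 CPM against 836 and 866 CPM).

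In neurons LYN fell into separate ranges. The 4 subclasses L5NP, L6b, IT_C and L6CT (near-projecting neurons of layer 5, layer 6b neurons, an intratelencephalic subclass named by the study and corticothalamic neurons of layer 6) lay between 21.1 and 84.9 CPM in either animal. The other 9 neuronal subclasses lay between 0 and 6.92 CPM, so these ranges did not overlap. That grouping was made after the values had been seen.

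LYN was highest among neurons in L5NP, at 84.9 CPM in animal 1 (95% interval 75.3 to 95.4) and 35.4 CPM in animal 2 (27.8 to 44.3). It was 99.8 and 68.9 CPM in libraries 1A and 1B and 31.5 and 39.4 CPM in 2A and 2B. Both libraries of animal 1 thus lay above both of animal 2, and the mean, 60.1 ± 35.0 CPM (SD, n = 2 animals), was 7.41% ± 4.61 of the microglial level. L6b followed at 56.3 and 25.8 CPM, from only 56 and 53 nuclei.

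In IT_C, LYN was 37.8 CPM in animal 1 and 33.3 CPM in animal 2. All 4 libraries were close to each other, at 37.6, 38.0, 32.4 and 34.2 CPM, and 17.1% (95% interval 14.9 to 19.4) and 14.7% (12.9 to 16.7) of IT_C nuclei were positive. In L6CT the levels were 29.5 and 21.1 CPM, with 17.3% and 11.9% positive. Both values of IT_C lay above both of L6CT, whereas L5NP overlapped with L6b, and L6b with IT_C.

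The other intratelencephalic subclasses differed from IT_C by more than the animals differed from each other. IT_A, the largest subclass with 9864 nuclei, had 1.38 CPM in both animals, 50 UMIs in 4301 nuclei and 74 UMIs in 5563 nuclei. IT_B had 1.25 and 2.05 CPM. IT_D had no LYN UMI in 58 nuclei of animal 1, which allows up to 5.28 CPM or 5.17% of nuclei with a UMI (a limit on detection, not on nuclei that express the gene), and 1.02 CPM in animal 2.

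LYN was low in every GABAergic subclass, the inhibitory neurons. Pooled over these 5 subclasses it was 0.689 CPM in animal 1 and 2.17 CPM in animal 2. The highest single value was 6.92 CPM in Frem1 of animal 2, from 6 UMIs in 3 of 139 nuclei, against 0.892 CPM from 1 UMI in animal 1. Lamp5 of animal 1 had no UMI, which allows up to 2.42 CPM.

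Outside neurons and microglia, endothelial nuclei had LYN at 186 CPM (95% interval 84.8 to 352) and 432 CPM (280 to 638). These values rest on 34 UMIs in 65 nuclei, of which 20 were positive. Astrocytes had 12.5 and 8.10 CPM, and oligodendrocytes (OD) and their precursors (OPC) 0.785 to 1.87 CPM. Across all 18 subclasses the animals' values overlapped for 10 of the 17 pairs of neighbours in the order, and did not overlap from microglia to endothelial nuclei to L5NP.

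**Figure D1:**
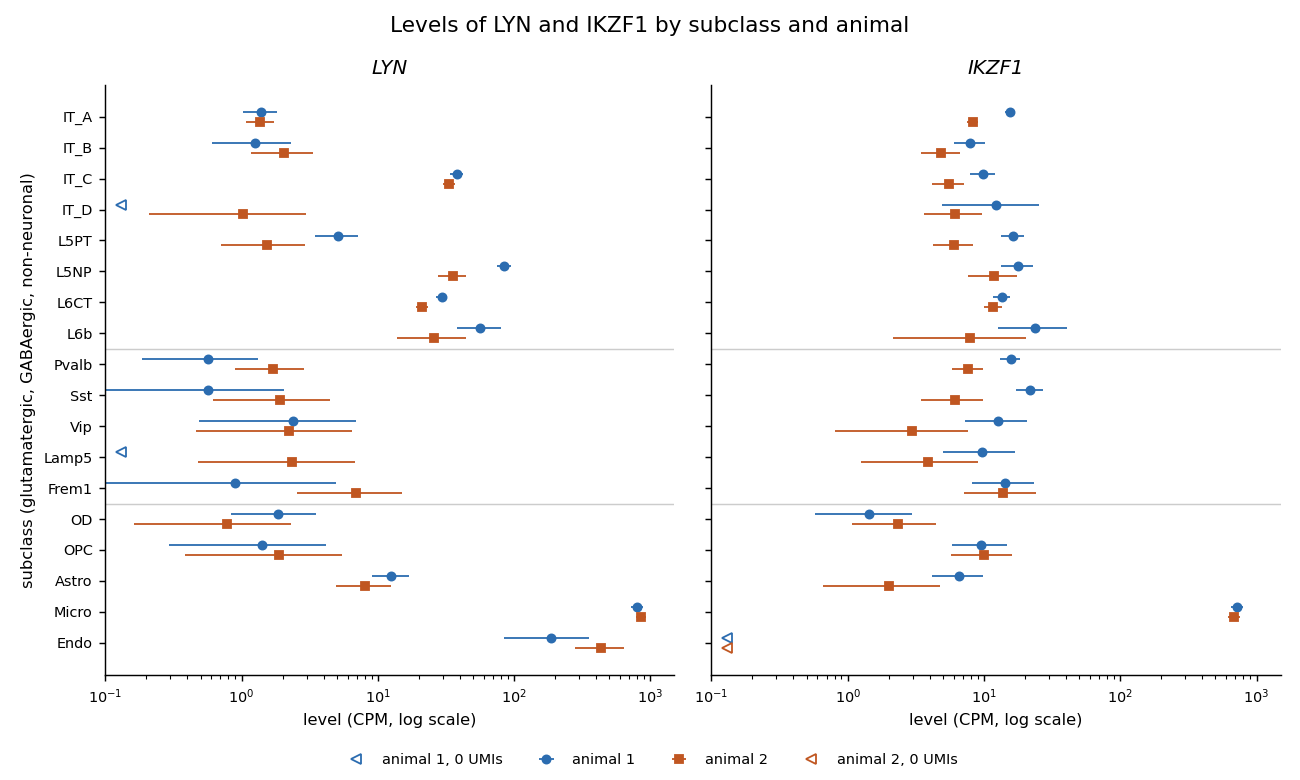
Levels of LYN (left) and IKZF1 (right) in CPM on a log axis, for 18 subclasses in rows. Circles are animal 1, squares animal 2, bars exact 95% Poisson intervals (counting error only), and open triangles at the left edge mark subclasses with 0 UMIs. LYN spans 21.1 to 84.9 CPM in IT_C, L5NP, L6CT and L6b and at most 6.92 CPM in the other neurons, whereas IKZF1 lies between 2.97 and 23.6 CPM in all 13 neuronal subclasses.

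IKZF1 had no such split. It was detected in all 13 neuronal subclasses of both animals, between 7.90 and 23.6 CPM in animal 1 and between 2.97 and 13.8 CPM in animal 2. The top of the latter range, in Frem1, rests on 12 UMIs, 6 of them in 1 nucleus, and is 7.03 CPM without it. Over all neurons it was 14.3 CPM in animal 1 and 7.98 CPM in animal 2, with 9.80% and 5.73% of neurons positive. The order of the subclasses was not resolved, since the animals' values overlapped for 15 of the 17 neighbouring pairs, and the exceptions were microglia against L6b at the top and OD against endothelial nuclei at the bottom.

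The highest neuronal mean of IKZF1 was in L6b, at 23.6 and 7.93 CPM, which rests on 13 and 4 UMIs. L5NP had 17.6 and 11.8 CPM, Frem1 14.3 and 13.8 CPM, and L6CT 13.5 and 11.6 CPM. IT_A had 15.5 CPM (95% interval 14.3 to 16.9) and 8.25 CPM (7.50 to 9.06), with 562 and 444 UMIs behind them. IT_A, where LYN was near 1 CPM, was thus inside the range of the other neuronal subclasses for IKZF1.

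IT_C, where LYN was high, lay toward the lower end for IKZF1, at 9.79 and 5.53 CPM. IT_B had 7.90 and 4.88 CPM and IT_D 12.3 and 6.102 CPM. Glutamatergic and GABAergic neurons overlapped, at 13.9 and 8.12 CPM against 16.2 and 6.95 CPM.

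Among glia other than microglia, IKZF1 was 9.48 and 9.95 CPM in OPC, 6.56 and 2.02 CPM in astrocytes and 1.43 and 2.36 CPM in OD. No IKZF1 UMI was found in the 65 endothelial nuclei, which allows up to 61.8 and 51.8 CPM in the 2 animals. The OD values rest on 4047 nuclei and 16 UMIs.

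IKZF1 was higher in animal 1 than in animal 2 in 13 of 13 neuronal subclasses, a direction that 2.89% of 10822 genes with at least 5 CPM in neurons shared, and 2.40% of the 4624 genes with 5 to 20 CPM. In 12 of the 13, both libraries of animal 1 lay above both of animal 2, the exception being Frem1. With the nucleus richest in IKZF1 left out of each library, an alternative chosen after seeing the data, it was again 12 of 13, with IT_D as the exception. Among the 32 neuronal types, 25 were higher in animal 1 and 7 in animal 2. In Sst interneurons, for example, the libraries gave 22.6 and 20.7 CPM in animal 1 and 12.0 and 1.37 CPM in animal 2, where 1 nucleus held 6 of the 14 UMIs behind 12.0 CPM (6.89 CPM without it). LYN was higher in animal 1 in 7 subclasses and in animal 2 in 6. Both libraries of animal 1 lay above both of animal 2 for LYN in IT_C, L5NP, L6CT, L6b and L5PT, and over all neurons (12.7 against 7.89 CPM), and both of animal 2 lay above both of animal 1 in IT_D, Sst, Lamp5 and Frem1 and over all GABAergic neurons (2.17 against 0.689 CPM). The 6 subclasses that were higher in animal 2 (these 4, IT_B and Pvalb) had 0 to 16 LYN UMIs per animal. Microglia did not follow for IKZF1, with overlapping libraries. Animal, age and the handling of each suspension cannot be told apart here.

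**Figure D2:**
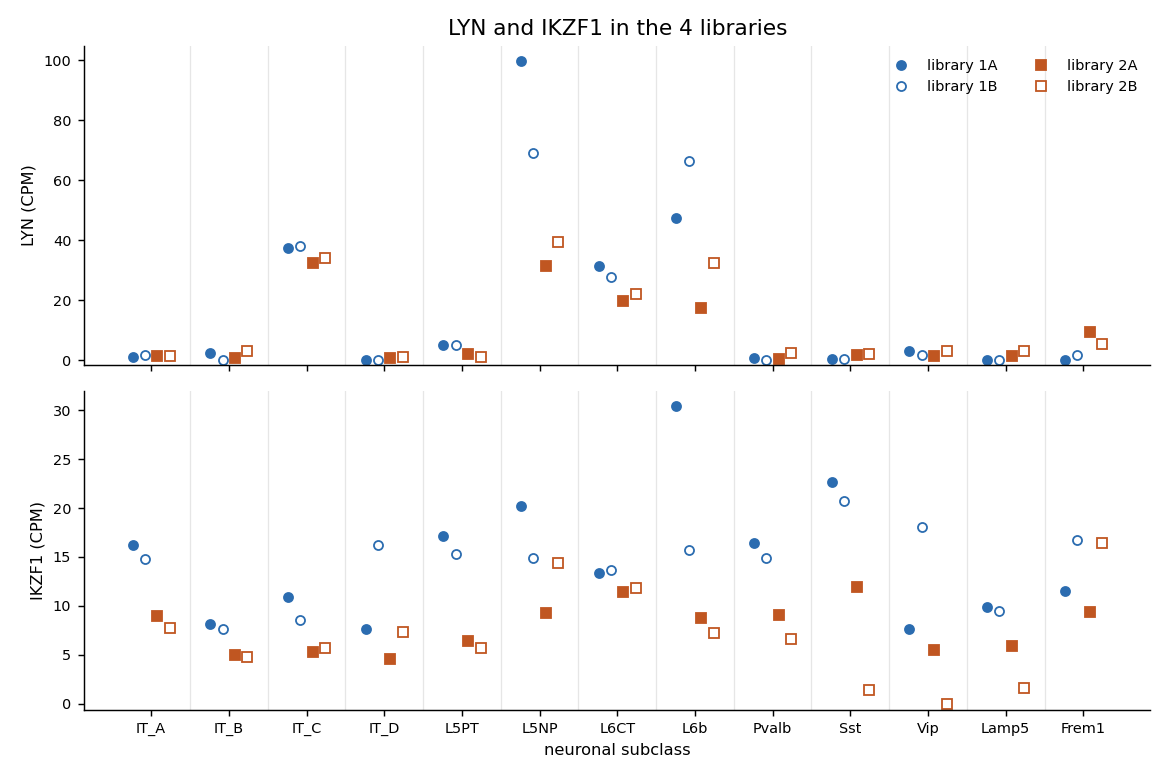
CPM of LYN (upper) and IKZF1 (lower) in the 4 libraries for 13 neuronal subclasses. Circles are animal 1 and squares animal 2, filled for library A and open for library B of each animal. IKZF1 of both libraries of animal 1 lies above both of animal 2 in 12 of 13 subclasses, and LYN stands out in IT_C, L5NP, L6CT and L6b in all 4 libraries.

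The libraries of an animal are technical repeats, and the split by library had no part in the choice of the genes. The share of positive nuclei was compared between them by a two-sided Fisher's exact test for each gene, subclass and animal with counts to compare. Of 68 tests, 4 had a p under 0.05 and 0 remained after Benjamini-Hochberg adjustment, with a smallest adjusted p of 0.257 for IKZF1 in IT_A of animal 2 (7.82% against 5.86%; Fisher's exact p = 0.00448) and LYN in IT_B of animal 1 (7 of 425 against 0 of 426 nuclei; Fisher's exact p = 0.00756). The levels themselves were not tested between libraries. Their counting intervals did not overlap for LYN in L5NP of animal 1 (85.4 to 115.8 against 56.7 to 83.0 CPM), for LYN in IT_B of animal 1 (1.19 to 4.55 against 0 to 0.938 CPM) or for IKZF1 in Sst of animal 2 (6.54 to 20.1 against 0.166 to 4.95 CPM). Such intervals take the UMIs of a nucleus as independent. Without the richest nucleus of each library they stayed apart in L5NP (81.5 to 111.3 against 53.7 to 79.4 CPM), but overlapped in Sst (2.97 to 13.6 against 0.0174 to 3.84 CPM), and the interval in IT_B began at 0.547 CPM, inside that of the library with no LYN UMI.

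Positive nuclei were counted against depth because microglial nuclei held far fewer UMIs than neurons. In L5NP, 32.6% and 15.3% of nuclei were LYN positive at a median of 7167 and 6043.5 UMIs. In OD, which had few LYN UMIs, 0.395% and 0.170% were positive at a median of 1924 and 1909 UMIs. With each nucleus thinned to 1000 UMIs the expected shares were 7.62% and 3.15% in L5NP, 3.24% and 3.02% in IT_C, 2.78% and 1.91% in L6CT, 0.130% and 0.121% in IT_A and 0.217% and 0.115% in OD. Microglia kept 51.8% and 53.8%. Thinning left out 26 and 9 neurons and 10 and 12 microglial nuclei with under 1000 UMIs. At like depth, LYN in IT_C, L5NP and L6CT was therefore above the share in OD in both animals, and the values of IT_A overlapped with those of OD.

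For IKZF1 the thinned shares were 1.36% and 0.754% in neurons, 51.6% and 49.2% in microglia and 0.130% and 0.209% in OD. All 13 neuronal subclasses lay above OD in the same animal, from 0.730% (Lamp5) to 3.15% (L6b) in animal 1 and from 0.257% (Vip) to 1.55% (L5NP) in animal 2. OPC, at 1.05% and 0.979%, lay inside the neuronal range. Thinning takes the level of a gene as the same at every depth. Among neurons that held under 3000 UMIs, IKZF1 was positive in 0.303% and 0.543% of IT_A and 0% and 0.472% of L6CT nuclei. It was positive in 0.704% and 0% in Pvalb, 2.41% and 0% in IT_C and 3.70% and 4.65% in L5NP, from 0 to 4 UMIs each. OD, without thinning, had 0.263% and 0.453%, so at this depth IT_A, L6CT and Pvalb were not clearly above OD.

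Several UMIs of LYN in a single nucleus were common where its level was high. Of the positive nuclei in IT_C, L5NP, L6CT and L6b, 36.3% held 2 or more, up to 10, whereas 17.1% did so among the other positive neurons. Of IKZF1 positive neurons, 16.5% held 2 or more, up to 7. No neuron carried more than 0.477% of all neuronal LYN UMIs or 0.310% of all neuronal IKZF1 UMIs. Within a subclass with few UMIs, single nuclei weighed more. The richest nucleus held 13.6% of the LYN and 11.8% of the IKZF1 UMIs in L6b, 42.9% and 21.4% in Frem1, and 66.7% and 17.6% in Lamp5.

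The genes were found together in few neurons. In IT_C, 16 and 18 nuclei held a UMI of both, and IKZF1 was positive in 8.33% and 8.91% of LYN positive nuclei against 6.22% and 2.64% of LYN negative ones. LYN positive nuclei were deeper, with medians of 9821 and 8160.5 UMIs against 7633 and 6268, and the part of depth in this difference was not tested. In L6CT the shares were 10.0% and 11.6% against 9.95% and 7.50%, and in L5NP 14.1% and 8.51% against 11.6% and 6.90%. In L6b they were 7.14% and 12.5% against 26.2% and 6.67%, with a single nucleus holding both in each animal. In microglia 144 of 332 and 173 of 391 nuclei held both.

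Among types, the finer groups of the annotation, LYN differed within subclasses. IT_C_2 had 40.5 and 50.1 CPM and IT_C_1 had 15.5 and 22.4 CPM. IT_C_1 was thus at least 2-fold lower in both animals, as were 5.58% of 10104 genes with 5 CPM or more in IT_C_2. In L6CT, LYN was highest in L6CT_1 in both animals (35.7 and 26.5 CPM), and L6CT_4 was close to it at 29.3 and 26.3 CPM. The 5 types of IT_A all lay between 1.05 and 2.03 CPM.

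IKZF1 was uneven within IT_A, the most numerous subclass. IT_A_1 had 3.51 CPM in animal 1 and 3.53 CPM in animal 2, and the other 4 types together had 17.6 and 11.8 CPM. No value of IT_A_1 came near those of the other types, whose lowest was 7.79 CPM (IT_A_4 of animal 2). Of 10312 genes with 5 CPM or more in the other types, 6.26% were at least 2-fold lower in IT_A_1 in both animals.

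Similar gaps occurred in other subclasses. IKZF1 was 1.45 and 4.45 CPM in L6CT_2, where the other L6CT types together had 14.1 and 14.4 CPM (3.66% of 10112 genes were 2-fold lower there in both animals). It was 2.55 and 3.40 CPM in L5PT_2, a type of pyramidal tract neurons of layer 5, against 17.2 and 7.45 CPM (4.38% of 9874 genes), and 5.48 and 2.73 CPM in Pvalb_2 against 16.4 and 9.23 CPM (4.83% of 10171 genes). In Sst_2, IKZF1 was at 0 in animal 1 against 23.2 CPM in the other Sst types and at 11.5 against 4.46 CPM in animal 2 (4.96% of 10019 genes were 2-fold lower there in both animals). The value of 11.5 CPM came from 2 of 202 nuclei, 1 of which held 6 of the 7 UMIs, and without that nucleus it was 1.66 CPM. L6CT_4 was the highest L6CT type for IKZF1, at 24.2 and 23.0 CPM. Hence L6CT_1 led for LYN and L6CT_4 for IKZF1.

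**Figure D3:**
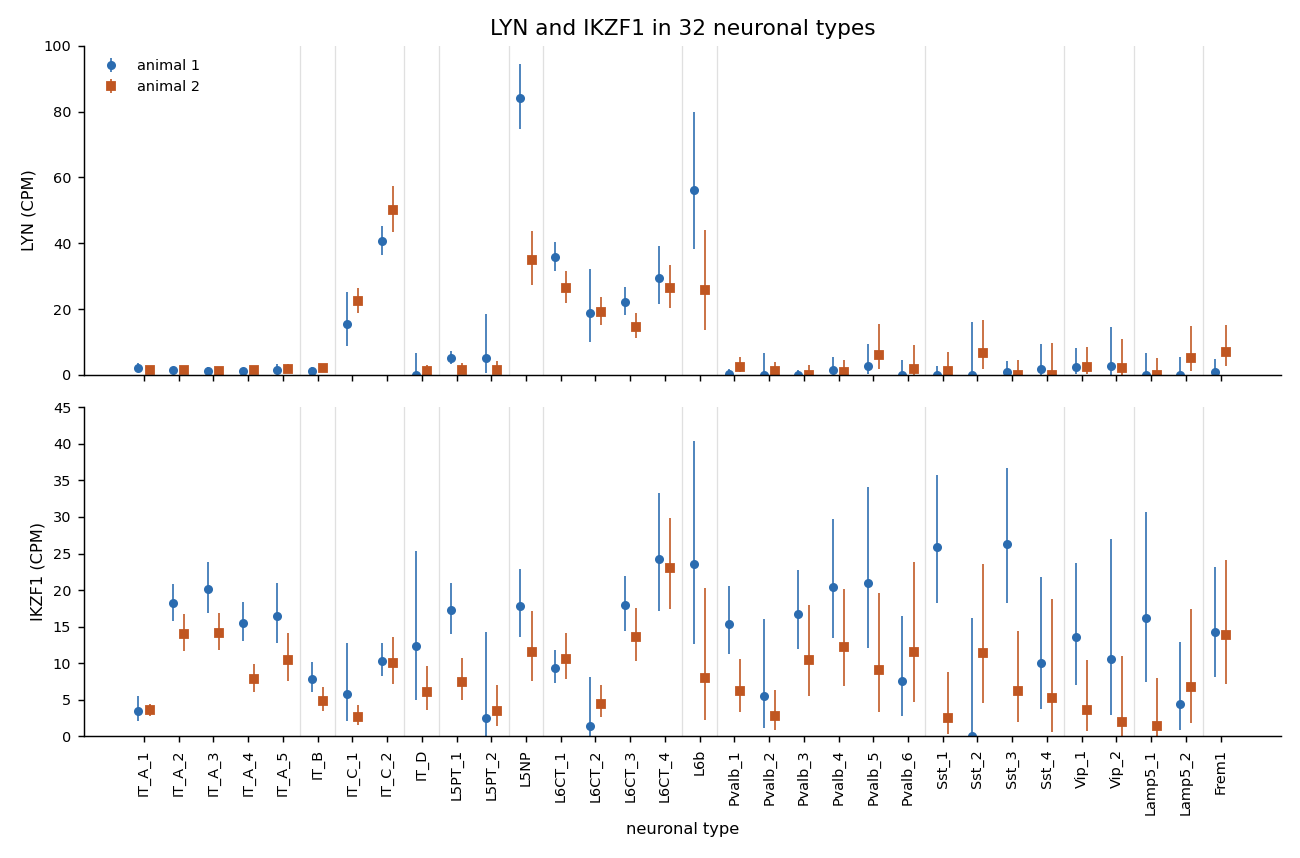
CPM of LYN (upper) and IKZF1 (lower) in 32 neuronal types (circles animal 1, squares animal 2), with exact 95% Poisson intervals for counting error; grey lines separate subclasses. LYN is raised in both IT_C types, L5NP, the 4 L6CT types and L6b, and IKZF1 is low in IT_A_1, L6CT_2, L5PT_2 and Pvalb_2 beside the other types of their subclass.

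Types with low IKZF1 were often the shallowest of their subclass, in 7 of 8 subclasses with several types in animal 1 and in 6 of 8 in animal 2. IT_A_1 of animal 1, for example, had a median of 4049 UMIs. In animal 2 the median of IT_A_1 was 8384 UMIs, above that of IT_A_5 (8094 UMIs, with IKZF1 at 10.5 CPM).

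Nuclei of like depth were therefore compared. Between 6000 and 9999 UMIs, IKZF1 was 4.51 CPM in IT_A_1 of animal 1 (95% interval 1.65 to 9.81) and 20.3 CPM in the other IT_A types (17.9 to 23.0). In animal 2 the values were 2.56 CPM (1.43 to 4.22) and 13.4 CPM (11.3 to 15.7). The intervals did not overlap in either animal.

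At 10000 UMIs or more, IT_A_1 had 7.12 and 4.37 CPM and the other types 15.2 and 10.6 CPM. IT_A_1 was lower in 7 of 8 combinations of animal and depth class, the exception being nuclei under 3000 UMIs in animal 2, where IT_A_1 had 1 UMI and the other types none. The counting intervals were apart in 6 of the 7. In L6CT_2, IKZF1 was lower in 4 of 4 combinations with at least 20 nuclei on each side, with intervals apart in 3. It was lower in IT_C_1 in 5 of 5, with intervals apart in 2. In L5PT_2 it was lower in 3 of 3 and in Pvalb_2 in 5 of 6, and there the intervals overlapped in each.

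Within IT_A_1 the level itself was higher in deeper nuclei, from 1.42 CPM at 3000 to 5999 UMIs to 4.37 CPM at 10000 or more in animal 2. For LYN, IT_C_1 was lower than IT_C_2 in 4 of 5 combinations, among them 18.6 against 64.9 CPM at 6000 to 9999 UMIs in animal 2.

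**Figure D4:**
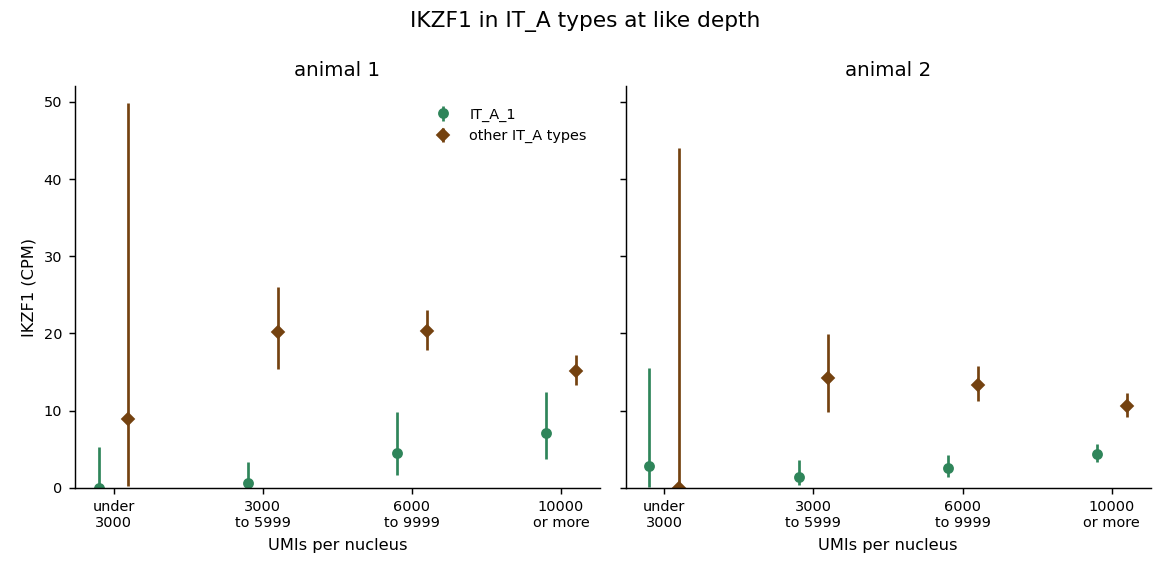
IKZF1 in CPM in IT_A_1 (circles) and the other 4 IT_A types (diamonds), by UMIs per nucleus, for animal 1 (left) and animal 2 (right). Bars are exact 95% Poisson intervals for counting error. Between 3000 and 9999 UMIs the intervals of IT_A_1 and the other types are apart in both animals.

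IT_A_1, IT_C_1, L6CT_2, L5PT_2 and Pvalb_2 also made up different shares of their subclass in each animal. L6CT_2, for instance, was 11.5% of L6CT nuclei in animal 1 and 40.3% in animal 2, and IT_C_1 was 25% and 71.0% of IT_C. With each type given equal weight, the ratio of IKZF1 in animal 1 to that in animal 2 went from 1.88 to 1.47 in IT_A, from 1.77 to 1.28 in IT_C, from 1.16 to 1.03 in L6CT and from 3.56 to 2.47 in Sst. In Vip it rose from 4.25 to 4.34, and in Lamp5 it was 2.50 both ways. It stayed above 1 in each of the 8 subclasses with several types. For LYN in IT_C the same weighting turned the ratio from 1.13 to 0.774.

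The UMIs of both genes were set against those of the microglial markers. No profile of free RNA was measured, and the part of microglial RNA in these levels was not tested. Among the 5 markers highest in microglia were DOCK2 (1918 CPM), CSF1R (1003 CPM), INPP5D (706 CPM), APBB1IP (698 CPM) and PTPRC (492 CPM). The summed markers in neuronal subclasses lay between 18.2 and 91.5 CPM by animal. DOCK2, a guanine nucleotide exchange factor, alone passed 20 CPM in a neuronal subclass (60.5 ± 28.9 CPM in IT_D), and was left out of the summed ratios after this had been seen.

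Relative to the ratio in microglia, LYN UMIs per marker UMI were 22.5-fold and 8.82-fold in L5NP of animals 1 and 2. They were 10.9-fold and 10.8-fold in IT_C, 9.68-fold and 5.18-fold in L6b and 8.83-fold and 4.97-fold in L6CT. In the neurons outside these 4 subclasses LYN was 0.515-fold and 0.569-fold, that is, below the microglial ratio. Single values above it there were 1.62-fold in L5PT and 1.33-fold in Vip of animal 1 and 1.41-fold in Frem1 of animal 2, from 32, 3 and 6 UMIs.

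For IKZF1 the ratio over all neurons was 5.01-fold and 3.28-fold that of microglia. It exceeded 1 in all 13 neuronal subclasses of animal 1 and in 12 of 13 in animal 2, the exception being Lamp5 at 0.767-fold, from 5 UMIs. With DOCK2 among the markers the ratio over all neurons was 3.58-fold and 2.44-fold, and Vip of animal 2 was also below the microglial ratio, at 0.789-fold. In OD, without DOCK2, it was 0.704-fold and 0.853-fold. In endothelial nuclei, LYN was 47.8-fold and 32.4-fold, set against only 1 and 4 marker UMIs.

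**Figure D5:**
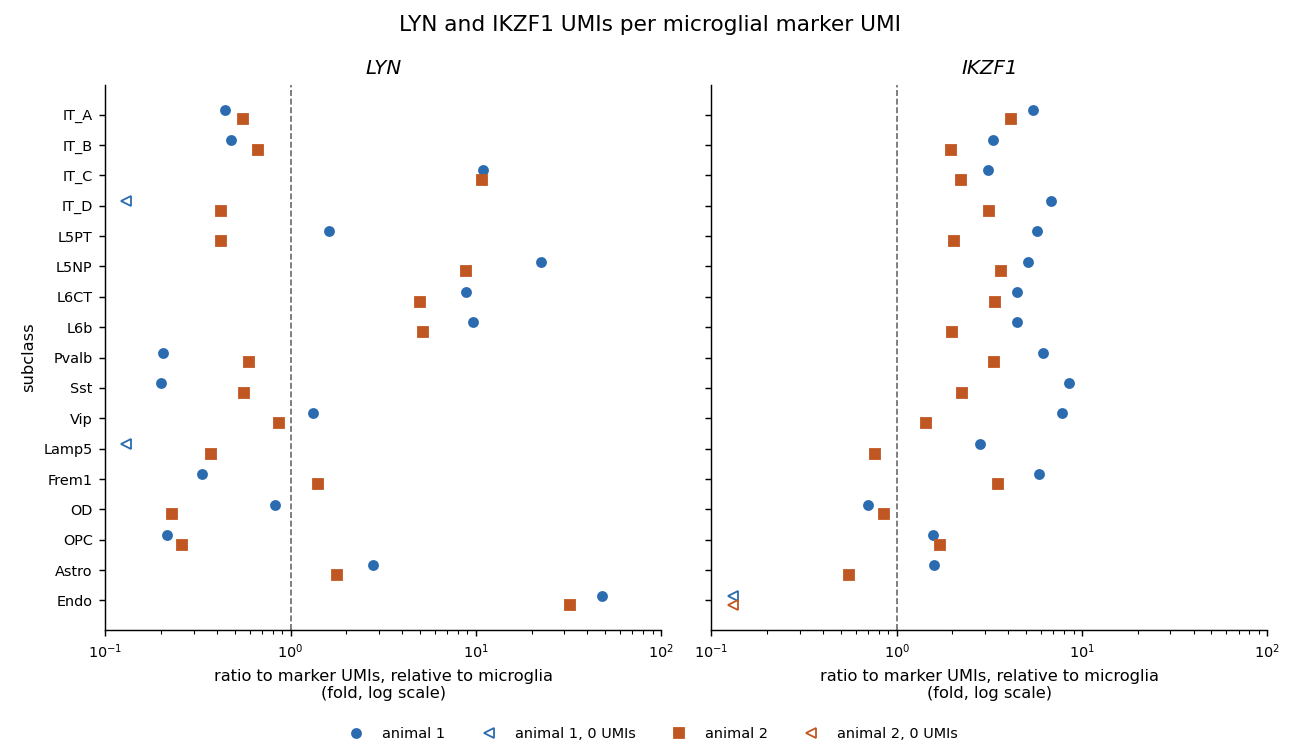
UMIs of LYN (left) and IKZF1 (right) per UMI of the microglial markers without DOCK2, divided by the same ratio in microglia of that animal, on a log axis, for 17 subclasses in rows (circles animal 1, squares animal 2). The dashed line is the microglial ratio, and open triangles mark 0 UMIs. LYN lies 4.97-fold to 22.5-fold above the line in IT_C, L5NP, L6CT and L6b, and IKZF1 lies above it in 25 of the 26 neuronal values.

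Gene by gene, pooled over all neurons, the members lay among the markers. Over 14 markers, DOCK2 included, the neuronal level was a median of 0.293% and 0.330% of the microglial level, with CD74 highest at 2.82% and 1.87% and CTSS next at 1.86% and 1.64%. LYN stood at 1.60% and 0.927%, and IKZF1 at 1.97% and 1.17%, inside the range of the markers. In its highest neuronal subclass, L5NP, LYN was at 10.7% and 4.16% of its microglial level (mean 7.41%), where the mean of a marker in its own highest neuronal subclass was at most 6.09% (CTSS), followed by CD74 at 3.49% and DOCK2 at 3.15%. Of the lists for other blood cells, both T cell genes with a symbol were at 0 in microglia and their sum was at most 1.76 CPM in any neuronal subclass. The B cell list reached 3.96 CPM and the list of border macrophages 4.95 CPM there. The astrocyte list, set beside LYN after its values were seen, summed to 465 to 728 CPM in IT_C, L5NP, L6CT and L6b. It summed to 73.9 to 460 CPM in the other neuronal subclasses, and its relation to LYN was not tested.

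Neurons with LYN did hold microglial markers somewhat more often. A marker UMI other than DOCK2 was present in 16.7% and 18.2% of LYN positive neurons and in 11.6% and 10.5% of the others, whose medians were 7712 and 7661 UMIs against 9414 and 8856. Of LYN positive neurons, 4.00% and 6.96% were Scrublet doublets (nuclei that the authors' doublet caller marked), and 2.15% and 2.83% of the others. For IKZF1 the marker shares were 16.1% and 17.0% against 11.4% and 10.5%. Doublets were 3.41% and 5.44% of IKZF1 positive neurons and 2.15% and 2.87% of the others. Over all neurons the marker levels without DOCK2 were also higher in positive nuclei. They were 23.6 against 16.03 CPM and 42.8 against 14.2 CPM for LYN. For IKZF1 they were 22.8 against 15.8 CPM and 28.3 against 14.7 CPM. The gap was wide in the 55 LYN positive IT_A nuclei of animal 2, with 42.4 CPM of markers against 12.4 CPM and 12.7% doublets against 1.92%. It was smaller in the 45 of animal 1, at 24.1 against 16.5 CPM and 4.44% against 1.22%. In Pvalb, with 4 and 9 LYN positive nuclei, marker levels were 170 against 14.0 CPM and 139 against 12.9 CPM. Within the 4 LYN-high subclasses the marker levels of LYN positive and negative nuclei were 17.8 against 18.6 CPM and 17.8 against 15.6 CPM in IT_C, and 15.8 against 18.2 CPM and 39.6 against 18.9 CPM in L6CT. They were 26.5 against 16.4 CPM and 20.3 against 20.9 CPM in L5NP, and 46.0 against 26.2 CPM and 29.0 against 24.9 CPM in L6b. In L6CT of animal 2, 9.05% of LYN positive nuclei were doublets, against 4.94%. For IKZF1 in L6CT the marker levels were 28.8 against 16.3 CPM and 58.1 against 18.03 CPM. Doublets there were 11.4% against 4.64% and 8.33% against 5.18%. In L6b the marker levels went the other way, at 27.2 against 31.8 CPM and 0 against 27.8 CPM. They did so too in L5NP of animal 1 and Pvalb of animal 2. The part of depth in these shares was not tested. Levels in CPM are already scaled to UMIs, and the source of the marker UMIs was not tested.

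Relatives of LYN were read next, from lists of genes chosen with earlier results known. Summed counts per animal and subclass were fitted over all 18 subclasses with edgeR's quasi-likelihood test and Benjamini-Hochberg adjustment over 17227 genes. Subclass labels rest on the same counts and each group has 2 animals, so p-values describe these nuclei. The CPM given for a side of these contrasts is the mean of its subclasses' CPM, each subclass weighing equally, in animals 1 and 2. In this fit 45.4% of all genes were called between neurons and microglia, 24.6% higher and 20.8% lower in neurons, and the median log2 difference over all genes was 0.30.

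FYN was higher in neurons, with a log2 difference of 1.80 ± 0.14 (SE; edgeR adjusted p = 2.72e-12) from 395 and 366 CPM against 106 and 163 CPM. SRC was not called, with 52.9 and 61.5 CPM in neurons and 49.0 and 63.8 CPM in microglia. LCK, BLK and FRK fell under the low-count filter, with neuronal maxima of 3.63, 3.97 and 1.78 CPM. Among neurons FYN was highest in IT_C (548 ± 27.9 CPM) and lowest in Frem1 (233 CPM), and SRC ranged from 36.9 CPM in L6b to 81.3 CPM in L5NP.

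Relatives of IKZF1 were read in the same way. All 3 that had a symbol were tested, with a median log2 difference of -1.07 between neurons and microglia. The contrast averages log levels over subclasses, so subclasses with few UMIs of a gene weigh heavily. IKZF3, for example, had means from 0 in L6b to 26.3 CPM in IT_B, against 1.89 and 3.19 CPM in microglia. IKZF2 was higher in neurons (log2 difference 0.85 ± 0.28; edgeR adjusted p = 0.0129; 40.3 and 41.5 CPM against 24.5 and 25.5 CPM), IKZF5 was lower (-1.07 ± 0.23; edgeR adjusted p = 0.000241; 14.2 and 11.7 CPM against 37.7 and 30.3 CPM) and IKZF3 was not called. With equal numbers of nuclei in each subclass IKZF2 lost its call and its direction (-0.24; edgeR adjusted p = 0.890).

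Between glutamatergic and GABAergic neurons, 39.9% of genes were called, 20.5% higher and 19.4% lower in the glutamatergic ones. IKZF2 was lower there, at 30.4 and 30.8 CPM against 56.2 and 58.6 CPM (log2 difference -0.996 ± 0.10; edgeR adjusted p = 1.25e-09), and FYN was higher (0.64 ± 0.06; edgeR adjusted p = 1.45e-10). IKZF3 (Aiolos) peaked in IT_B at 31.2 and 21.3 CPM and had no UMI in L6b. In IT_C against the other IT subclasses, where 10.9% of genes were called, 5.75% higher and 5.17% lower, IKZF3 was lower at 1.94 and 2.27 CPM against 17.8 and 15.1 CPM (-2.90 ± 0.34; edgeR adjusted p = 5.90e-07). IKZF3 was thus scarce in the IT subclass where LYN was high. It was also scarce in subclasses where LYN was low, such as L5PT (1.27 and 1.72 CPM) and Pvalb (0.795 and 0.651 CPM). IKZF2 and FYN were both somewhat higher in IT_C (0.47 ± 0.15, edgeR adjusted p = 0.0447, and 0.42 ± 0.11, edgeR adjusted p = 0.00645).

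Most of the listed receptors, substrates and regulators of LYN were lower in neurons than in microglia. The list shares CSF1R, PTPRC and INPP5D with the microglial markers and holds other blood cell genes, so its making partly fixed this direction. Of 41 listed genes 27 had a symbol and 25 were tested. Of these, 20 were lower in neurons (20.8% of all genes), 2 were higher (24.6%) and 3 were not called, with a median log2 difference of -3.66. The 5 furthest down were PTPRC (CD45, the phosphatase that activates Src kinases; log2 difference -9.50), CSF1R (the receptor for macrophage growth factor; -9.22), VAV1 (-8.98), BLNK (an adaptor of B cell receptor signalling; -8.90) and PLCG2 (-8.35). CSF1R, for example, was 2.02 and 1.81 CPM in neurons and 986 and 1020 CPM in microglia. The 2 that were higher in neurons were PLCG1 (3.31 ± 0.25; edgeR adjusted p = 2.13e-12; 61.7 and 60.1 CPM against 7.54 and 7.97 CPM), a phospholipase C, and CBLB (0.87 ± 0.15; edgeR adjusted p = 9.52e-06), a ubiquitin ligase.

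Several genes of that list, picked out after their values were seen, had many UMIs in neurons while lower than in microglia. GAB2, an adaptor, had 221 and 193 CPM, STAT3 108 and 124 CPM, and CBL 67.7 and 66.7 CPM. SYK, the kinase that LYN activates in B cells, had 32.8 and 59.5 CPM in neurons against 575 and 566 CPM in microglia.

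In IT_C against the other IT subclasses, 2 of these 25 genes were higher (5.75% of all genes), 3 lower (5.17%) and 20 not called. Their median log2 difference was -0.02, where the median over all genes was 0.03. SKAP2, a Src kinase adaptor, was higher at 54.6 and 44.8 CPM against 23.1 and 16.7 CPM (1.33 ± 0.14; edgeR adjusted p = 5.65e-08), as was PLCG1 (0.37 ± 0.10). PAG1, a membrane anchor of the Src kinase inhibitor CSK, was lower at 11.2 and 13.8 CPM against 41.6 and 52.6 CPM (-1.70 ± 0.22; edgeR adjusted p = 1.70e-06), as were GAB1 (-1.15 ± 0.19) and CBLB (-0.36 ± 0.11). With the animal as a block, 2965 genes were called in this contrast in place of 1882. Between glutamatergic and GABAergic neurons, 5 were higher (20.5% of all genes), 8 lower (19.4%) and 12 not called. SYK had the largest rise (2.52 ± 0.33; edgeR adjusted p = 1.77e-07) and KIT, a receptor kinase, the largest fall (-2.05 ± 0.22; edgeR adjusted p = 3.50e-09; 19.5 and 17.6 CPM against 233 and 237 CPM).

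The partners of Ikaros went both ways. Of 17 tested, 5 were higher in neurons (24.6% of all genes), 6 lower (20.8%) and 6 not called. Their median log2 difference of 0.28 was close to the 0.30 of all genes. CRBN, the substrate receptor through which thalidomide analogues reach Ikaros, was higher (1.25 ± 0.12; edgeR adjusted p = 4.74e-10; 127 and 125 CPM against 60.3 and 74.9 CPM). CHD4, the remodeller of NuRD, was lower (-1.15 ± 0.21; edgeR adjusted p = 4.62e-05; 40.9 and 53.3 CPM against 124 and 136 CPM), and GATAD2A was the furthest down (-2.19 ± 0.14). In IT_C against the other IT subclasses, MTA3 was the only one called, lower by a log2 difference of -0.29.

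Blood-lineage transcription factors other than Ikaros were read last. This list was chosen for blood cells and shares SPI1 with the microglial markers. Of 11 tested, 6 were lower in neurons (20.8% of all genes), 2 higher (24.6%) and 3 not called, with a median log2 difference of -1.76. SPI1 (PU.1), which sets myeloid fate, was 0.716 and 0.417 CPM in neurons against 102 and 92.5 CPM in microglia (-7.43 ± 0.32; edgeR adjusted p = 1.14e-16). FLI1, of the ETS family, was 0.728 and 1.17 CPM against 654 and 643 CPM (-9.27 ± 0.20). BCL11A and BCL11B, which act in lymphocytes and also in cortical projection neurons, were the 2 that were higher (2.72 ± 0.24 and 3.32 ± 0.25).

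RUNX1, a regulator of blood stem cells, was lower in neurons as a whole (-7.26 ± 0.23). Within IT neurons it shared the side of LYN, at 15.9 and 12.8 CPM in IT_C against 1.11 and 1.24 CPM in the other IT subclasses (3.74 ± 0.31; edgeR adjusted p = 1.15e-09). BCL11A was also higher in IT_C (0.97 ± 0.15) and ETV6 lower (-0.53 ± 0.11), and 8 of the 11 were not called.

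The 8 genes most like LYN were ranked among 8420 genes by Pearson correlation of log2(CPM + 1) over the 13 neuronal subclasses, taking the lower of the 2 animals. These values share libraries and depth and carry no p. The 8 were IRAK2 (0.875), ADAMTS8, RBPJ, RETREG1, SYT6, DPP4, DRD5 and DNAJC21 (0.802). IRAK2, a kinase of interleukin 1 and Toll-like receptor signalling, had 45.2 and 39.2 CPM in L5NP, 30.1 and 17.1 CPM in L6CT and 11.9 and 14.0 CPM in IT_C, against 7.70 and 6.30 CPM in IT_A.

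RBPJ, the transcription factor of Notch signalling, had 389 and 282 CPM in L6b and 166 and 131 CPM in IT_C against 80.7 and 68.1 CPM in IT_A. SYT6, a synaptotagmin, was steepest in L6CT, at 166 and 132 CPM against 2.40 and 2.32 CPM in IT_A. DRD5, a dopamine receptor, reached 14.5 and 11.9 CPM in L6b but only 2.04 and 1.48 CPM in IT_C. DPP4, a peptidase, was 22.6 and 15.5 CPM in L6CT and 0 in microglia. In microglia, where LYN was highest, IRAK2 had 75.4 and 86.1 CPM and DRD5 was at 0.

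The 8 most like IKZF1 correlated less, from 0.699 (GPR179) through ARHGEF11, IRS2, GRB10, LPGAT1, YKT6 and AKT1 to 0.616 (FOXJ3), over the same 13 subclasses. GRB10, an adaptor of insulin receptor signalling, is separated from IKZF1 by 3 genes in the RefSeq annotation of mMonDom1.pri, another assembly than that of the counts. GRB10 had 48.7 and 36.2 CPM in L6CT and 1.40 and 2.07 CPM in IT_C, and was higher in animal 1 in 11 of 13 neuronal subclasses. Unlike IKZF1 it was high in astrocytes, at 156 and 165 CPM.

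The nearest protein-coding neighbours in that annotation were read as well. FIGNL1, before IKZF1, had a mean of 13.3 CPM in neurons and 0.943 CPM in microglia. Its correlation with IKZF1 over neuronal subclasses was 0.000538 in animal 1 and 0.602 in animal 2, and it was higher in animal 1 in 10 of 13 subclasses. SPMIP7 and ZPBP, after it, had 0.741 and 8.47 CPM in neurons. For LYN, 2 lncRNAs of that annotation overlap the gene, were not matched to the counted genes and were not analysed here. TGS1 and RPS20, on either side of LYN, had 45.8 and 3.04 CPM in neurons, and TGS1 was 59.8 CPM in L5NP and 38.4 CPM in IT_A, where LYN differed far more.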

How the data were processed

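Nuclei from V1 of 2 opossums were profiled with 10x Chromium 3′ v3 chemistry, with 2 libraries per animal. The deposited files hold UMI counts per gene and nucleus, and the authors' Scrublet doublet score per nucleus, a fraction between 0 and 1. Per the study's methods, the authors counted reads, introns included, with Cell Ranger 6.1.1 on ASM229v1 with Ensembl release 110 genes, whose 3′ ends they had extended by up to 5 kb, kept barcodes by numbers of genes and UMIs, and gave doublet calls, subclasses and types, which were taken as deposited. The headers of the deposited count matrices name Cell Ranger 7.1.0 instead, and this difference was not resolved. Introns and extended ends can add reads of overlapping transcripts to a gene.

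From the counts, CPM, shares of positive nuclei (exact Poisson and Clopper-Pearson 95% intervals) and expected shares at 1000 UMIs were computed per animal. Where no UMI was found, 3 counts set the limit. Nuclei are not replicates, and the 2 animals are the only ones. Counts summed per animal and subclass were tested with edgeR 4.0.16 (R 4.3.3; TMM, filterByExpr, quasi-likelihood test, Benjamini-Hochberg threshold 0.05), subclasses weighing equally in each contrast, and checked with DESeq2 1.42.0. Counts were also simulated for neurons against microglia and filtered anew (15125 genes tested). The edgeR test recovered 102 of 200 genes changed 4-fold when these were drawn from all genes past the filter on the real counts. Drawn genes that failed the filter anew could not be recovered. It recovered 182 of 200 when drawn from genes with at least 20 expected counts in each microglial sum. That draw was chosen after a first recovery had been low. Outside the changed genes, all simulated subclasses shared a profile and a fixed spread, so the recovery describes the real fit only in part. Low genes can thus be missed. The subclasses come from the same animals, which pairs the sums: deviations of the same animal in 2 subclasses correlated at 0.000156 to 0.558 (median 0.105, 153 pairs). Other computations used Python 3.11.15. No sequence was used here.

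LYN, IKZF1 and the gene lists were chosen with earlier results of these data known. Named were the members, genes of their families (some results are not reported here), at most 5 called genes in each direction per list, genes singled out in the text after their values were seen, and the 8 genes most like each member (at least 5 CPM in a neuronal subclass). The comparison of types at like depth, the equal weighting of types and the ratio without DOCK2 were chosen after seeing the data. The 2315 nuclei without a subclass and 1479 failing barcodes entered no comparison.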

Additional observations from a re-analysis of the deposited data

Results flagged for a closer look

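Nuclei that the comparisons leave out also held both genes, above the limit that a count of 0 allows. Barcodes that failed the quality filter had LYN at 29.4 CPM and IKZF1 at 31.0 CPM, by animal 38.4 and 23.5 CPM for LYN and 59.3 and 12.7 CPM for IKZF1. LYN was 20.1 CPM in non-neuronal doublets, 10.2 CPM in ambiguous non-neuronal nuclei and 5.90 CPM in GABAergic doublets. IKZF1 was 16.9 CPM in non-neuronal doublets, 10.2 CPM in ambiguous non-neuronal nuclei, 14.2 CPM in GABAergic doublets and 2.85 CPM in ambiguous GABAergic nuclei. These groups hold nuclei of mixed or unknown kind, and the source of the UMIs was not tested.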

How the results depend on the processing

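Thinning to 1000 UMIs lowered the mean share of LYN positive nuclei to 5.38% in L5NP and 52.8% in microglia, and of IKZF1 positive nuclei to 2.08% in L6b and 50.4% in microglia. The mean of single nuclei gave IKZF1 733.9 CPM in microglia. The level that the microglial markers would bring was also subtracted. This takes every marker UMI in a neuron as microglial RNA at the microglial ratio, which was not tested. LYN in IT_A then became -3.86 CPM with DOCK2 among the markers and -1.43 CPM without it, levels that cannot occur. The values were 56.1 and 56.3 CPM in L5NP and 32.8 and 32.3 CPM in IT_C. IKZF1 went from 15.8 to 10.4 and 11.1 CPM in L6b and from 11.9 to 7.36 and 9.47 CPM in IT_A. The values for IT_C, L6CT and IT_A and for IKZF1 over all neurons, and those without DOCK2, were alternatives chosen after seeing the data. Of the 8 genes most like LYN, Spearman's measure kept 3 and all 18 subclasses 0, and of those most like IKZF1 4 and 0. Equal nuclei per subclass left 2244, 2221 and 378 called genes for neurons against microglia, glutamatergic against GABAergic neurons and IT_C against other IT subclasses, with 7457 genes tested. The animal as a block, which follows the pairing, gave 2965 calls for IT_C and moved no other count by over 1.5 times.

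Leaving out an animal gives the other's own value and tests nothing. LYN then ranged over 35.4 to 84.9 CPM and 15.3% to 32.6% in L5NP and 796 to 851 CPM and 64.5% to 68.3% in microglia, with a ratio of 0.0416 to 0.107. IKZF1 ranged over 7.93 to 23.6 CPM and 7.55% to 21.4% in L6b and 684 to 724 CPM and 63.4% to 65.4% in microglia, with a ratio of 0.0116 to 0.0326. The edgeR counts cannot be tested with 1 animal. Few nuclei limit L6b, IT_D, Frem1 and endothelial values.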
